A study of Homo sapiens with 6 samples.

Results

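The regions described here are the ChIRP-seq peaks that lie within 1 Mb on either side of the locus of CDKN1A and the DINO RNA on chromosome 6, with the locus itself left out. They were chosen by position alone, as all peaks with a summit in the 1 Mb below or the 1 Mb above a stretch of 20 kb around the strongest region of the locus, which lies at 36644595 to 36646433 (hg19). These 2 Mb, which were set with earlier results of these data known, are called the span. Its first peak began at 35640642 and its last ended at 37656670. It held 345 of the 314001 peaks on chromosomes 1 to 22 and X. In the separate lists these were 121 peaks of the untreated even library, 123 of the RNase-treated even library, 36 of the untreated odd library and 65 of the RNase-treated odd library. The part left out held 15 peaks, and no peak reached across an edge of the span or of the locus.

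In ChIRP-seq, biotinylated oligonucleotides that match an RNA are used to pull down crosslinked chromatin, and the DNA that comes with it is sequenced. All libraries came from U2OS cells, derived from an osteosarcoma and wild-type for p53, that were given 0.2 µg/mL doxorubicin for 24 h and crosslinked with glutaraldehyde. The RNA was captured with 2 separate probe sets (even and odd), each from chromatin without RNase and, as a control, from RNase-treated chromatin. The 2 input samples of the 6 were not analysed here. Each condition had 1 library, so a spread between replicates could not be measured, no p-value is given, and each difference is between libraries and not between conditions. All intervals given are 95% intervals that cover counting error only. The number of reads behind the lists is unknown.

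CDKN1A encodes p21, an inhibitor of cyclin-dependent kinases that stops the cell cycle when p53 is active. DINO is transcribed beside it after DNA damage and is needed for full activation of several p53 target genes. A noncoding RNA can stay near its place of synthesis and so reach the neighbouring chromatin first, or it can act at distant sites, and the surroundings of its gene are where a local spread would be seen. In gene order, taken from a table of another assembly (GRCh38.p14), SRSF3, an RNA splicing factor, and STK38, a protein kinase, come before CDKN1A. RAB44, CPNE5 and PIM1, which encodes a kinase that promotes survival, come after it. RNF8, a ubiquitin ligase that acts at DNA double-strand breaks, lies further along the same side. No hg19 gene annotation was used here, so peaks are given by position and are not placed in these genes.

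The span was rich in peaks in every list, and peaks did not thin out steadily with distance from the locus. The untreated even list had 60.5 peaks per Mb (exact Poisson interval 50.2 to 72.3) and the RNase-treated even list had 61.5 (51.1 to 73.4). The untreated odd list had 18 peaks per Mb (12.6 to 24.9) and the RNase-treated odd list had 32.5 (25.1 to 41.4). The lists differ in length over the whole genome, so these densities were read within each list. Peaks of the even lists covered 1.43% (untreated) and 1.37% (RNase-treated) of the span, and those of the odd lists covered 0.364% and 0.685%. Neighbouring summits lay a median of 12.1 kb (untreated) and 11.3 kb (RNase-treated) apart in the even lists. In the odd lists the spacing was 43.4 kb without RNase and 23.01 kb with it.

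**Figure D1:**
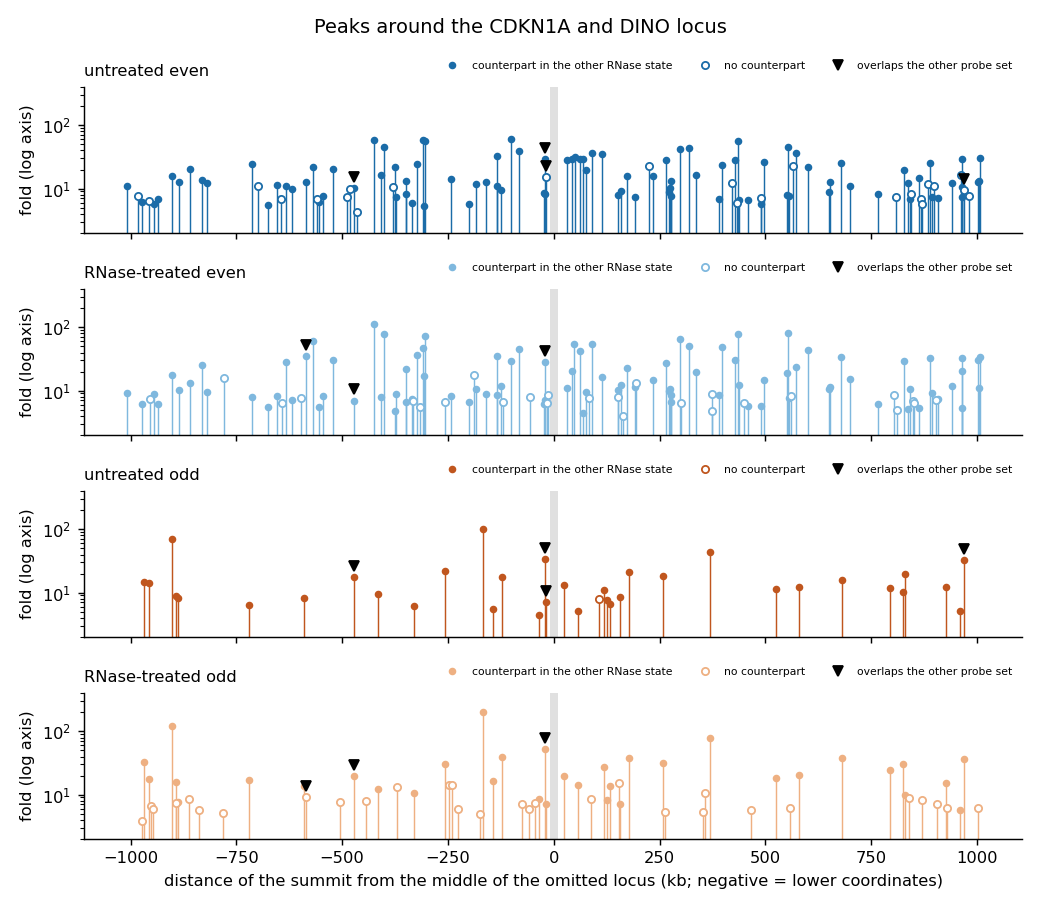
Each peak of the span by the distance of its summit from the middle of the omitted locus (kb, lower coordinates to the left; grey band, the omitted part) and its fold enrichment on a log axis, with 1 panel per list. Filled circles overlap a peak of the same probe set in the other RNase state, open circles do not, and black triangles mark peaks that overlap the other probe set. The highest folds, 100.3 and 206 in the odd lists, stand at the same position on the lower side, and triangles are few.

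The fold enrichment of a peak is the authors' own value at its summit, relative to a background that the peak caller estimated, and it served to describe and rank peaks within that list. In the untreated even list the folds of the span ran from 4.30 to 60.8 with a median of 12.1, against a median of 10.8 on the rest of chromosome 6. In the RNase-treated even list they ran from 3.93 to 111 with a median of 10.1 (rest of the chromosome 11.7). For the untreated odd list the range was 4.38 to 100.3 with a median of 11.6 (rest 10.03). For the RNase-treated odd list it was 3.88 to 206 with a median of 10.5 (rest 10.7). The median of the span was thus a little above the rest of the chromosome in both untreated lists and a little below it in both RNase-treated lists. Folds of at least 30 were reached by 16 peaks (13.2%) of the untreated even list, 25 (20.3%) of the RNase-treated even list, 5 (13.9%) of the untreated odd list and 12 (18.5%) of the RNase-treated odd list. Over chromosomes 1 to 22 and X the same shares were 12.4%, 18.03%, 14.7% and 18.7%, so high folds in the span were about as frequent as elsewhere. Peaks of the span had median widths of 217, 172, 168 and 164 bp in the same order. Over chromosomes 1 to 22 and X these were 186, 192, 171 and 173 bp.

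The span was next set beside other stretches of chromosome 6. These were 83 windows of 2 Mb laid end to end, without those that touch the span. The untreated even list had 121 peaks in the span, against a median window of 58 (lowest 1, highest 143), and 6 windows had more. In the RNase-treated even list the span had 123 against a median of 74 (1 to 142), and 5 windows had more. For untreated odd peaks it had 36 against a median of 22 (0 to 46), and 5 windows had more. For RNase-treated odd peaks it had 65 against a median of 37 (1 to 66), and 1 window had more. The span was therefore in the upper part of the chromosome in all 4 lists, with 2.09 (untreated even), 1.66 (RNase-treated even), 1.64 (untreated odd) and 1.76 times (RNase-treated odd) the peaks of the median window. With the windows shifted by 1 Mb, 2 of 81 had more untreated odd peaks than the span and 0 of 81 more RNase-treated odd peaks. The windows with almost no peaks were at 58000001 to 60000000, with 2 to 6 peaks in each list, and at 60000001 to 62000000, with 0 or 1.

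A large stretch of the chromosome around the span was also rich in even peaks. The 7 windows nearest to it, between 28000001 and 46000000 of the chromosome and chosen after the data were seen, had 81 to 141 untreated even peaks (median 127), and 4 of them had more than the span. For the RNase-treated even list they had 85 to 140 peaks (median 121), and 3 had more than the span. The odd lists differed from this. The same 7 windows had 26 to 35 untreated odd peaks, all below the 36 of the span, and 49 to 61 RNase-treated odd peaks, all below its 65. The distance of the odd lists to their highest neighbour was small beside the Poisson intervals of the span, which were 25.2 to 49.8 untreated and 50.2 to 82.8 RNase-treated odd peaks.

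**Figure D2:**
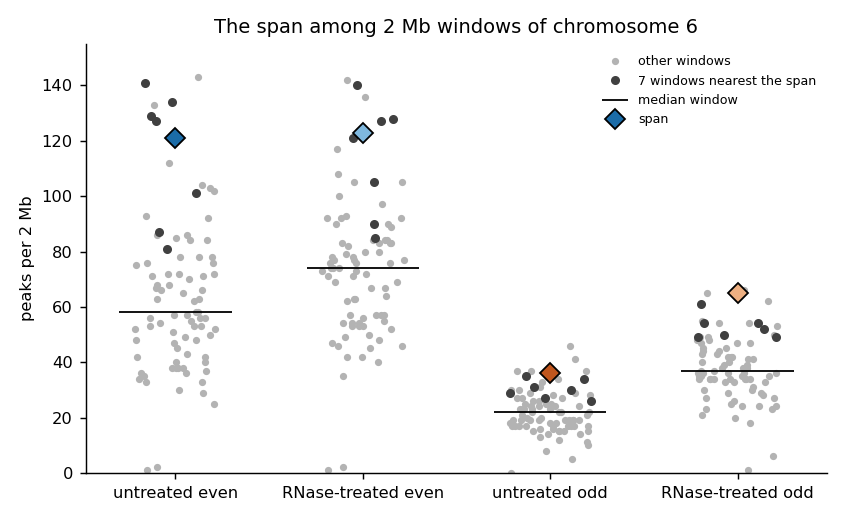
Number of peaks per 2 Mb in the span (diamonds) and in 83 other windows of chromosome 6 (circles; the 7 windows nearest the span are dark, horizontal lines are medians), for each list. The span lies above the median window in all 4 lists, inside the range of the 7 nearest windows for the even lists and just above it for the odd lists.

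Distance and side were examined from the edges of the omitted part. The lower side had 54 untreated even peaks and the higher side 67, and after RNase the even counts were 56 and 67. The odd lists had 17 and 19 untreated peaks on these sides, and 35 and 30 RNase-treated peaks. The Poisson intervals of the sides overlapped in every list, for example 40.6 to 70.5 and 51.9 to 85.1 peaks per Mb for the untreated even list. The share of peaks on the lower side was 44.6% (untreated) and 45.5% (RNase-treated) in the even lists and 47.2% and 53.8% in the odd lists. In windows elsewhere on the chromosome the median share of the lower half-window was between 48.8% and 51.4%, and these windows spread widely.

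Over both sides, the untreated even list had 70 peaks per Mb within 50 kb of the locus (interval 28.1 to 144), 60 at 50 to 100 kb, 46.7 at 100 to 250 kb, 72 at 250 to 500 kb and 58 at 500 to 1000 kb (44.04 to 75.0). The RNase-treated even list had 90 (41.2 to 171), 70, 63.3, 70 and 53 (39.7 to 69.3) at the same distances. Neither even list thus differed between the nearest and the farthest distances by more than its counting error. The untreated odd list had 50 peaks per Mb within 50 kb (5 peaks, 16.2 to 117), 10 at 50 to 100 kb (1 peak), 33.3 at 100 to 250 kb (15.98 to 61.3), 8 at 250 to 500 kb (2.18 to 20.5) and 16 at 500 to 1000 kb (9.14 to 26.0). The RNase-treated odd list had 70 (7 peaks, 28.1 to 144), 20, 50 (27.98 to 82.5), 22 (10.98 to 39.4) and 30 (20.2 to 42.8). Both odd lists were highest in the nearest distance, low at 50 to 100 kb, high again at 100 to 250 kb and lower beyond. This course was alike with and without RNase and rests on few peaks, and the intervals of the nearest and farthest distances overlapped. In wider bins the untreated odd list had 35 peaks per Mb within 200 kb (19.1 to 58.7) and 32 within 250 kb (18.3 to 52.0). Both intervals lay just above its 18 over the whole span. The RNase-treated odd list had 47.5 (28.6 to 74.2) and 48 (30.8 to 71.4), and both intervals held its 32.5 over the span. The intervals of the even lists in these bins also held their span densities.

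**Figure D3:**
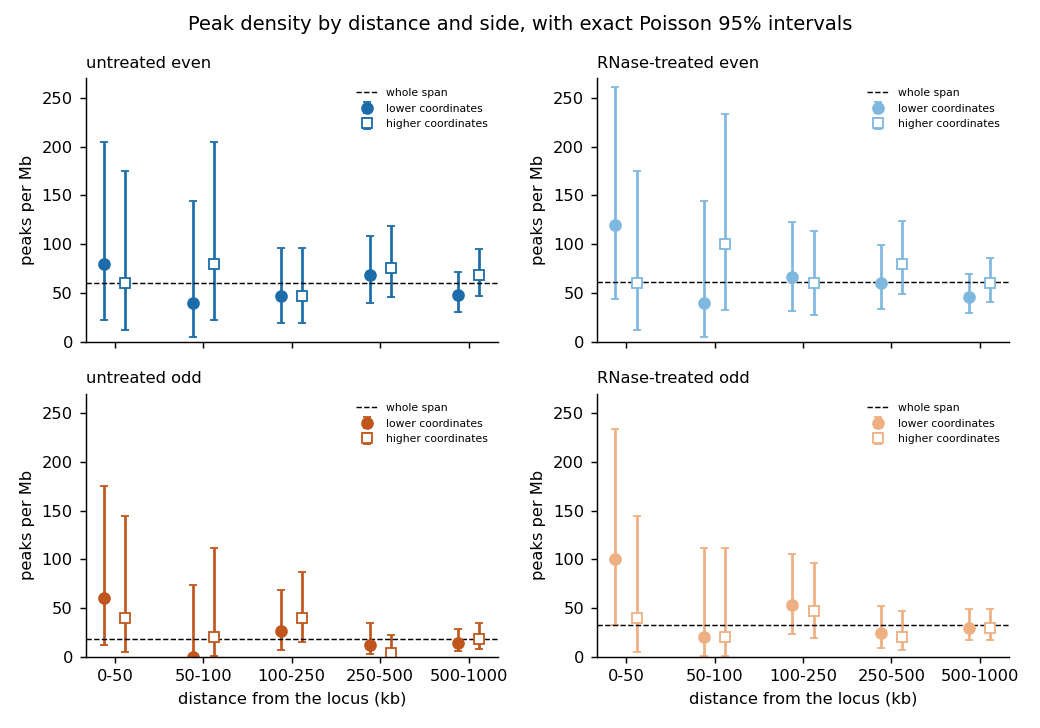
Peaks per Mb at 5 distances from the omitted locus, for lower coordinates (filled circles) and higher coordinates (open squares), with exact Poisson 95% intervals; dashed lines give the density of the whole span. The intervals of the nearest bins are wide, from 21.8 to 205 for 4 untreated even peaks on the lower side, and hold the density of the whole span in each list and side.

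Over 100 kb steps, the untreated even list had between 1 and 12 peaks (median 6 over 20 steps), and its fullest step was at 800 to 900 kb on the higher side, where 5 of the 12 peaks had no counterpart after RNase. The RNase-treated even list had 2 to 11 peaks per step, and its fullest was the same step, where 4 of the 11 had no untreated counterpart. Over chromosomes 1 to 22 and X the shares without a counterpart were 19.1% (untreated even) and 26.5% (RNase-treated even). The step was picked as the fullest and holds few peaks. No step was empty in the even lists. The untreated odd list had 0 to 5 peaks per step with 2 empty steps, at 600 to 700 kb on the lower side and 400 to 500 kb on the higher side. The RNase-treated odd list had 0 to 6 with 1 empty step, which was the former of these.

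The first 100 kb on each side were looked at site by site, where a site is the union of overlapping peaks of the 4 lists. The lower side held 13 such sites and the higher side 12. On the lower side the site next to the locus was a peak of the RNase-treated even list alone, at 36636753 to 36636905, 3.17 kb from the edge, with a fold of 8.60. The next, at 36633655 to 36633786 (fold 6.38), was likewise found in that list alone. A group of 4 sites followed within 13 kb of the edge, and all peaks of the lower side that overlapped between probe sets within 100 kb were in this group. Its strongest site, at 36628706 to 36629434, had folds of 28.9 (untreated even), 28.7 (RNase-treated even), 34.2 (untreated odd) and 53.1 (RNase-treated odd), and was among the stronger peaks of the span in each list. It was flanked by weaker even sites at 36627387 to 36627617 (fold 8.42 without and 6.12 with RNase) and at 36629518 to 36629838 (8.21 and 7.16), which neither odd list held. Farther out, the even site at 36567204 to 36567553 had folds of 39.6 and 45.6, and the even site at 36548705 to 36549115 had 60.8 and 29.8, the first of which is the highest untreated even fold of the span. The remaining 5 sites of the lower side within 100 kb had folds between 4.38 and 8.56.

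On the higher side the nearest site was of the odd set, at 36674103 to 36674454, 14.3 kb from the edge, with folds of 13.4 without and 19.8 with RNase. Beyond it, 7 sites were found in both even lists, and all 7 had untreated folds above the span's median, between 20.0 and 36.3. After RNase the folds at these 7 sites were spread more widely, from 4.48 to 54.2. At 36681320 to 36681661 the fold was 28.1 without RNase and 11.1 with RNase, and at 36717978 to 36718282 it was 28.9 and 4.48. The order was the other way at 36698769 to 36699184, with 31.2 and 54.2, and at 36739050 to 36739438, with 36.3 and 53.9. No site of the higher side within 100 kb was shared by the probe sets. The 13 untreated even peaks within 100 kb on both sides had a median fold of 28.9, and 11 of them reached 10, whereas the median was 11.9 for the 50 peaks at 100 to 500 kb and 11.1 for the 58 peaks beyond. In the other lists the medians did not show this order. Their medians within 100 kb were 10.2 (16 RNase-treated even peaks), 7.48 (6 untreated odd peaks) and 8.56 (9 RNase-treated odd peaks), against 9.54, 12.1 and 8.97 beyond 500 kb.

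The next question was how often the probe sets agreed, since an RNA that touches a site should be captured there by each set. Few peaks of the span were shared. Without RNase, 4 of 121 even peaks overlapped an odd peak by at least 1 bp, which is 3.31% (Wilson interval 1.29 to 8.19), against 1.23% over chromosomes 1 to 22 and X. From the odd side these were 4 of 36 peaks, 11.1% (4.41 to 25.3), against 3.78%. The background shares lay just below both intervals. Both counts come from the same 4 regions, so the 2 intervals are not separate evidence. Of these regions, 2 were neighbours, 10.8 and 8.97 kb below the locus, whereas the intervals assume independent peaks. The small gap was therefore not read as an excess. With RNase, 3 of 123 even peaks overlapped an odd peak, 2.44% (0.833 to 6.93), against 1.61%, and 3 of 65 odd peaks overlapped an even peak, 4.62% (1.58 to 12.7), against 3.28%. The RNase-treated shares were near their background. Among the 83 windows, none had more than 4 untreated regions of both probe sets and 2 had as many as the span, while the median window had 0. The span also had more peaks than most windows. By share of peaks, 3 windows were above the span in the untreated even list (highest 3.85%). In the untreated odd list 3 windows were above it too (highest 14.8%). With RNase, 5 windows had more than the 3 regions of the span and 8 had as many. When each list was cut to its 34695 strongest peaks, 1 untreated region of both sets was left in the span, and under reciprocal overlap of 50% the RNase-treated lists had 0 such regions.

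Shared sites lay mostly on the lower side. Of the 5 sites with peaks of both probe sets in any lists, 4 were on the lower side and 1 on the higher side, and the other 203 sites were of the even set alone (142) or of the odd set alone (61). On the lower side 3 of 54 untreated even peaks were shared (5.56%, interval 1.91 to 15.1) and on the higher side 1 of 67 (1.49%, 0.264 to 7.98). With RNase they were 3 of 56 (5.36%) and 0 of 67, which allows a share of up to 4.48% by the limit of 3 counts and 5.42% by the Wilson interval. The intervals of the sides overlapped. By distance, 2 of 13 untreated even peaks within 100 kb were shared (15.4%, 4.33 to 42.2), 1 of 50 at 100 to 500 kb (2%) and 1 of 58 beyond (1.72%, 0.305 to 9.14). From the odd side, 2 of 6 peaks within 100 kb were shared (33.3%, 9.68 to 70.0), 1 of 14 at 100 to 500 kb and 1 of 16 beyond.

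The 5 shared sites differed in which lists held them. At 36628706 to 36629434, 10.8 kb below the locus, all 4 lists had a peak, with the folds given above, and the untreated even and odd summits lay 70 bp apart. It ranked in the top 13.2% of the untreated even list and the top 12.2% of the untreated odd list by fold. At 36178145 to 36178510, 462 kb below the locus, all 4 lists again had a peak, with folds of 10.3 (untreated even), 6.96 (RNase-treated even), 17.9 (untreated odd) and 19.7 (RNase-treated odd), and the untreated summits were 12 bp apart. These were the only sites of the span found in all 4 lists.

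The other shared sites were each absent from 1 list. The site at 36630921 to 36631113, 8.97 kb below the locus, had folds of 15.1 (untreated even), 7.03 (untreated odd) and 7.08 (RNase-treated odd). It was absent from the RNase-treated even list, so the even set had it only without RNase and the odd set had it in both states. The same pattern was seen at 37618032 to 37618377, 958 kb above the locus, with folds of 9.54 (untreated even), 32.9 (untreated odd) and 36.5 (RNase-treated odd). At 36063473 to 36064135, 576 kb below the locus, the untreated odd list had no peak, and the folds were 12.6 (untreated even), 35.3 (RNase-treated even) and 9.17 (RNase-treated odd). No site of the span was found by both probe sets without RNase and by neither with RNase.

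**Figure D4:**
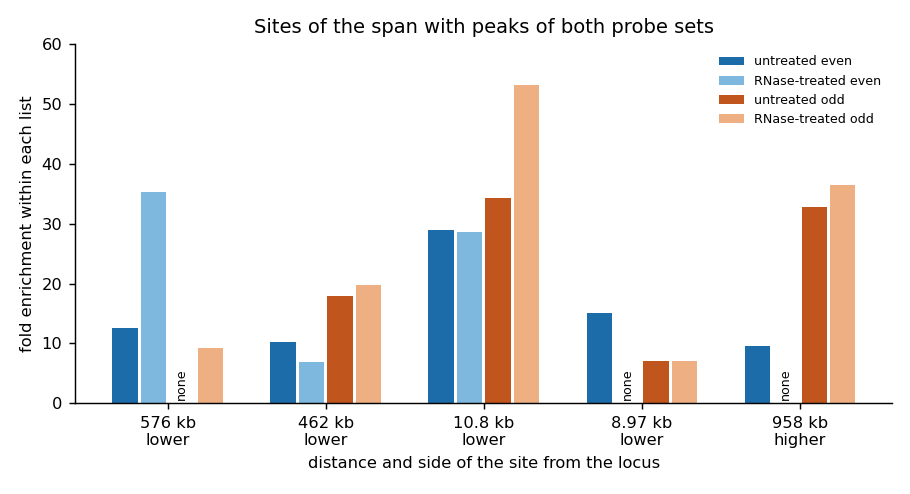
Fold enrichment in each of the 4 lists at the 5 sites of the span with peaks of both probe sets, ordered by position and labelled by distance and side; "none" marks a list with no peak there. Folds are each list's own and are not amounts of DNA; the site 10.8 kb below the locus and the site 462 kb below it have 4 bars, and the others have 3.

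Most untreated peaks of the span were found again after RNase with the same probe set. In the even set 24 of 121 untreated peaks had no overlapping RNase-treated peak, 19.8% (interval 13.7 to 27.8), against 19.1% over chromosomes 1 to 22 and X. In the odd set it was 1 of 36, 2.78% (0.492 to 14.2), against 8.41%. The interval of each share held its background. Over all folds, the even share was thus close to that elsewhere, and 18 of the 83 windows had a higher one. The odd share rests on 1 peak, so its wide interval cannot show whether loss was as frequent as elsewhere. Of the 82 windows with untreated odd peaks, 72 had a higher share than the span. In reverse, 26 of 123 RNase-treated even peaks had no untreated counterpart, 21.1% (14.8 to 29.2), against 26.5%, and 30 of 65 RNase-treated odd peaks, 46.2% (34.6 to 58.2), against 44.8%. With the 34695 strongest peaks of each list, the shares without a counterpart were 31.1% (untreated even) and 18.4% (RNase-treated even). They were 19.4% (untreated odd) and 19.4% (RNase-treated odd, 7 of the 36 peaks left). The untreated odd list stayed whole while the RNase-treated odd list was cut, so the untreated odd loss could only rise. No share over all chromosomes was computed at this cut, so these values have no background. Where both states had a peak, the summits were a median of 20 bp apart at 97 even sites (0 to 163) and 15 bp apart at 35 odd sites (0 to 57).

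In the even set, loss after RNase was seen on both sides and at all distances. In the untreated even list 10 of 54 peaks on the lower side (18.5%, 10.4 to 30.8) and 14 of 67 on the higher side (20.9%, 12.9 to 32.1) had no counterpart. By distance these were 1 of 13 within 100 kb (7.69%, 1.37 to 33.3), 8 of 50 at 100 to 500 kb (16%, 8.34 to 28.5) and 15 of 58 beyond (25.9%, 16.4 to 38.4). The share was thus lowest near the locus, with overlapping intervals. The 1 untreated odd peak without a counterpart was at 36756088 to 36756215, 96.2 kb above the locus, with a fold of 7.92. Of the RNase-treated odd peaks, 18 of 35 on the lower side (51.4%) and 12 of 30 on the higher side (40.0%) had no untreated counterpart, and the share was 44.4%, 46.2% and 46.7% with increasing distance.

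Loss went with a low fold. Of untreated even peaks with a fold under 10, 15 of 47 had no RNase-treated counterpart (31.9%, 20.4 to 46.2), close to the 34.2% of such peaks over chromosomes 1 to 22 and X. Of those with a fold of at least 10 it was 9 of 74 (12.2%, 6.53 to 21.5), and the share over all chromosomes, 6.39%, lay just below that interval. The 24 peaks without a counterpart had a median fold of 7.93 and none reached 30, whereas the 97 with a counterpart had a median of 12.9. In the RNase-treated lists 23 of 61 even peaks and 25 of 32 odd peaks with a fold under 10 had no untreated counterpart, against 3 of 62 and 5 of 33 with a higher fold. For the even peaks under a fold of 10 this was 37.7% (26.6 to 50.2), and the 53.7% of such peaks over chromosomes 1 to 22 and X lay above that interval. For the odd peaks it was 78.1% (61.2 to 88.98), near the 79.6% over all chromosomes. With a fold of at least 10 the shares were 4.84% (even) and 15.15% (odd), near the 6.97% and 15.07% over all chromosomes.

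**Figure D5:**
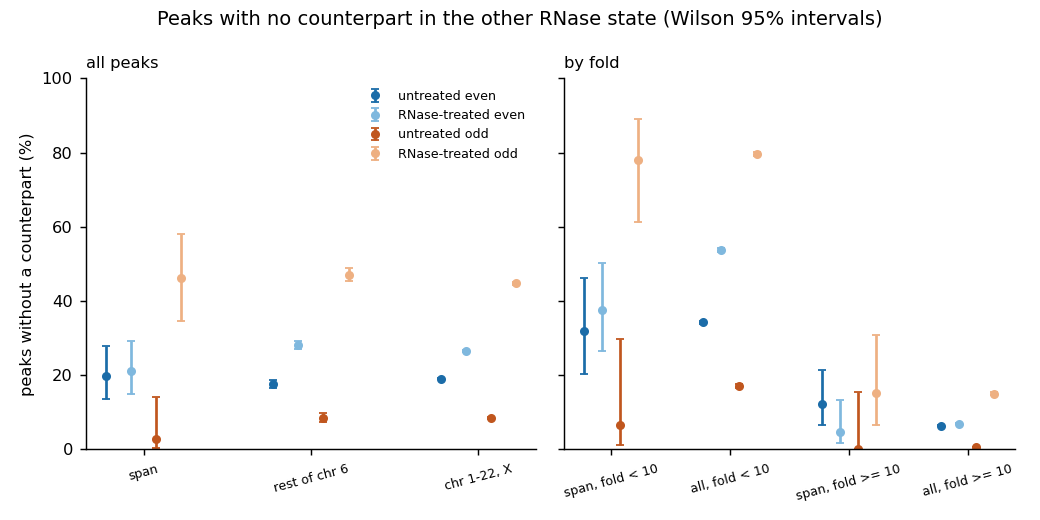
Percent of peaks with no overlapping peak of the same probe set in the other RNase state, for the span, the rest of chromosome 6 and chromosomes 1 to 22 and X (left), and split at a fold of 10 (right), with Wilson 95% intervals; colours are the 4 lists. Over all folds the span ranges from 2.78% for the untreated odd list to 46.2% for the RNase-treated odd list. In the split, the background lies outside the span's interval for untreated even peaks with a fold of at least 10 (12.2% against 6.39%) and RNase-treated even peaks with a fold under 10 (37.7% against 53.7%).

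The untreated even peaks without a counterpart that had the highest folds were mostly on the higher side. They lay at 36875711 to 36876056 (fold 23.1), 37216116 to 37216461 (22.5), 37611704 to 37612122 (16.4) and 37070579 to 37070793 (12.1), where no other list had a peak. The remaining member of the first 5, with a fold of 15.1, was the shared site 8.97 kb below the locus described above, which was present in both odd lists. The strongest RNase-treated even peaks without an untreated counterpart were at 36461224 to 36461410 (17.4), 35870313 to 35870465 (16) and 36843702 to 36843970 (13.4). In the RNase-treated odd list they were at 36804013 to 36804368 (15.4), 36402508 to 36402667 (14.3) and 36409012 to 36409265 (14.3). None of these 6 RNase-treated peaks overlapped a peak of the other probe set.

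The first 3 peaks of each odd list and the first 5 of each even list by fold belonged to a single probe set and were found in both RNase states. In the odd lists the first was at 36482072 to 36482640, 158 kb below the locus, with a fold of 100.3 without RNase and 206 with RNase, in the top 0.882% and 0.343% of their lists, and no even list had a peak there. The next 2 odd peaks were at 35747470 to 35748010 (69.4 and 123) and at 37019792 to 37020273 (43.9 and 78.04). The shared site 10.8 kb below the locus was the fourth in both odd lists. The fifth was the shared site 958 kb above the locus in the untreated odd list and a peak at 36526871 to 36527096 (38.8) in the RNase-treated odd list.

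In the even lists the order of the strongest peaks differed between the states. Without RNase the site at 36548705 to 36549115 came first (60.8), followed by 36225428 to 36225785 (59.5), 36340525 to 36341028 (58.9), 36344575 to 36344972 (56.9) and 37085618 to 37085899 (56.9). After RNase the site at 36225428 to 36225785 came first with 111, in the top 1.22% of its list, followed by 37202153 to 37202484 (80.8), 36248771 to 36249191 (78.4), 37085618 to 37085899 (77.8) and 36344575 to 36344972 (73.0). The 2 sites of this group that were not among the first 5 without RNase had untreated folds of 44.6 and 45.6, so all 5 of the strongest RNase-treated even peaks were also present without RNase. None of the 5 strongest peaks of either even list overlapped an odd peak.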

How the data were processed

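The data were 4 deposited peak lists in narrowPeak layout. Per the submitters' processing notes, Bowtie and MACS2 were used on build hg19. Tool versions, the peak threshold and the control library are not given in the sources used, and peak names carry the library, so the authors called each library on its own. The deposited fold enrichment is a linear ratio by the authors, the deposited score is 10 times the −log10 q-value, and the −log10 p-value is also the authors'. Positions are 1-based.

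A peak belonged to the span by its summit. Counts, overlaps of at least 1 bp and intervals (exact Poisson for densities, Wilson for shares) were computed in Python 3.11.15 (scipy 1.17.1, pandas 2.3.3, numpy 2.4.6; plots with matplotlib 3.10.9). The counting was tested on simulated lists. The intervals assume independent peaks, although neighbours can share a source. The DNA copy number of this cell line was not analysed.

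The span, the comparisons and the gene list were chosen with earlier results of these data known. Named peaks were, per list, the 5 highest folds, the nearest on each side, all shared regions, and the strongest without a counterpart (5 untreated, 3 RNase-treated per set). Other named positions within 100 kb were chosen after their values were seen. Alternatives were other overlap rules, fold and q-value minimums, equal list lengths, a wider omitted locus, and other windows and distance bins. Gene lists could not be placed, since no hg19 annotation was used here. All 26 listed genes were in the gene table of the other assembly, which served for gene order only.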

Additional observations from a re-analysis of the deposited data

Results flagged for a closer look

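The length of the span covered by peaks changed in opposite directions with RNase in the probe sets. In the even set it was 28522 bp without RNase and 27376 bp with RNase, a difference of -1146 bp. In the odd set it was 7287 bp and 13696 bp, a difference of 6409 bp. As ratios of RNase-treated to untreated these are 0.96 and 1.88. Over chromosomes 1 to 22 and X the covered length went up in both sets, 1.15 times (even) and 1.68 times (odd). The lists there had 105669 and 116171 even peaks and 34695 and 57466 odd peaks, so the odd rise in the span went with a longer list. Each value is of 1 library, and the difference between the probe sets was not tested. The number of peaks in the span did not go opposite ways, with 2 more even and 29 more odd peaks in the RNase-treated lists.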

How the results depend on the processing

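Of 98 values recomputed for 22 results, 86 remained inside the main value's 95% interval (for counts, a factor of 1.5) and 12 did not. With equal list lengths, the 34695 strongest peaks of each list, the loss after RNase was 31.1% for untreated even and 19.4% for untreated odd peaks. RNase-treated odd peaks without an untreated counterpart made up 19.4%. No share over all chromosomes was computed at this cut. The density was 2.65 (untreated even) and 2 (RNase-treated even) times the median window. The shared untreated odd peaks then fell to 2.78% and the untreated regions of both probe sets to 1, the site 10.8 kb below the locus, since fewer even peaks are used by construction. With reciprocal 50% overlap, 0% of RNase-treated even peaks (0 of 123) and 0% of RNase-treated odd peaks (0 of 65) were shared, with 0 regions of both sets. With windows shifted by 1 Mb, 2.47% of windows were above the span in the untreated odd list and 0% (0 of 81) in the RNase-treated odd list. Intervals counted once removed no peak and so tested nothing, yet these values are among the 86. Equal list lengths left the untreated odd list uncut, so its density of 1.64 times the median window could not change. The 86 therefore include values that could not move. Counts of under 10 peaks per distance limit what can be seen near the locus. No paired analysis was possible because each condition had 1 library and no test was run.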

Other observations

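The number of shared regions beside the locus was set against the rest of chromosome 6 after the data were seen. It is given as a description. Of 1709 tiles of 100 kb, and with the omitted locus not counted, 1649 had no untreated region of both probe sets, 58 had 1 and 2 had 2 or more. The tile of the locus was among the latter, with the sites 10.8 and 8.97 kb below the locus as its 2 regions. The other tile also had 2. With RNase the tile of the locus held 1 region, and 2 tiles had 2 or more.

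The flanks of the other strong regions of both probe sets were looked at in the same way, from 10 to 110 kb on each side of the middle of each. Both folds reached 50 in 8 untreated regions. Of these, the CDKN1A and DINO locus had 2 further untreated regions of both sets in its flanks, and the other 7 had 0. The RNase-treated regions in the same flanks numbered 1 at the locus and 0 at the other 7. Such regions were rare, with 1292 untreated and 1866 RNase-treated over chromosomes 1 to 22 and X. On chromosome 6, 1649 of the 1709 tiles had no untreated region, so 0 was the usual count. The 2 regions at the locus were the neighbouring sites 10.8 and 8.97 kb below it. The latter dropped out when peaks under a −log10 q of 10 were removed. The comparison thus cannot show whether the locus is unusual, which was not tested. The flanks of the locus held 13 untreated even and 5 untreated odd peaks. Those of the region on chromosome 22 at 47399078 to 47402149 held 15 and 6, and those of the region on chromosome 7 at 46217431 to 46218274 held 14 and 5.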
